A study of Mus musculus with 13 samples.

Results

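The genes described here are 34 components of the unfolded protein response of mouse, a fixed list of symbols chosen for what the genes do, all 34 of which were found among the 24054 genes of the deposited count tables. They were separated by role into 15 chaperones and folding enzymes of the endoplasmic reticulum (ER), 7 genes of ER-associated degradation (ERAD), 2 subunits of the Sec61 translocon, 4 sensors and transcription factors, and 6 genes of the Atf4 arm. Bulk RNA-seq of polyA RNA was available for 13 libraries in 6 groups, made to compare adult mouse small intestine with and without loss of Apc, the brake on Wnt signalling. Sec-Cre organoids (n = 2) carried Atoh1CreERT2, which is active in the secretory lineage, with Apcfl/fl and Rosa26tdTomato. ISC-Cre organoids (n = 2) carried Lgr5eGFP-CreERT2, which is active in intestinal stem cells (ISCs), with the same floxed and reporter alleles. WT organoids (n = 2) are given by the labels only as wild type. Sec-Cre ileal ISCs (n = 2) were flow-sorted from Atoh1CreERT2;Apcfl/fl;Lgr5DTR-GFP;Rosa26tdTomato mice, and ISC-Cre duodenal ISCs (n = 3) from mice of the ISC-Cre genotype. WT ileal ISCs (n = 2) came from mice with Apcfl/fl, Lgr5DTR-GFP and Rosa26tdTomato but without a Cre, so the control cells also carry the floxed allele. All 6 groups received 2 doses of 1 mg tamoxifen, and the labelled time was 10 days post induction for organoids, 21 for ileal ISCs and 14 for duodenal ISCs. The labels do not settle whether the organoid time counts to plating or to collection, since the design text gives 10 days from plating. The shared extraction text names only the duodenum, while the sample labels name the ileum for the ileal ISCs and for the organoid crypts, and the groups are named here by the sample labels.

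Proteins that enter the secretory pathway fold inside the ER, and an overload of unfolded protein there switches on 3 membrane sensors. Ern1 (IRE1) splices the mRNA of the transcription factor Xbp1, Atf6 is cut to release a transcription factor, and together these raise chaperones and ERAD genes. Eif2ak3 (PERK) phosphorylates the initiation factor eIF2α, which slows general translation and favours that of Atf4. Atf4 also answers amino acid shortage through other eIF2α kinases, and its targets include amino acid enzymes such as Asns. In the intestine the response is best known from Paneth and goblet cells, whose secretory load depends on Xbp1. The counts report total mRNA per gene and do not distinguish spliced from unspliced Xbp1 or measure Atf4 translation.

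The chaperones and the Atf4 arm also held different sequence motifs at their start sites. RefSeq promoter windows (GRCm38.p6, 250 bases before to 50 bases after the start site, 300 in all) were matched for 29 of the 34 members, and both strands were searched. The ER stress element, CCAAT then 9 bases then CCACG, was present in 7 of 13 chaperone promoters (53.8%) and in 0 of 6 Atf4-arm promoters, against 0.119% of all 32817 promoters. The C/EBP-ATF element, TGATG then 1 base then AA, to which Atf4 binds with C/EBP factors, was present in 3 of 6 Atf4-arm promoters (50%: Trib3, Chac1 and Asns), in 0 of 13 chaperone promoters and in 1 of 6 ERAD promoters (Herpud1, 112 bases upstream), against 3.97% of all promoters. ER stress element II, ATTGG then 1 base then CCACG, was found in Dnajb11 and Herpud1 only among the members, against 0.0366% of all promoters, and the UPR element TGACGTGG in 0 of 29, against 0.676%. In the members no match overlapped a match to another of the 4 motifs. A match is a description of letters and not a measured binding site. Both the motifs and the groups of genes were taken from what is known of this response, so their match is not an independent result. The windows shown take each match with 20 bases on either side, on the strand of the gene, with the fixed bases of the motif in capitals. Pdia6, Trib3 and Asns are shown as the chaperones and Atf4-arm genes that passed the test in an organoid comparison and hold a motif. Hspa5, Herpud1 and Chac1 were chosen after their values had been seen, to show the element in the best-known chaperone, the second kind of element, and another Atf4-arm match. The windows are Hspa5 at chr2:34772005-34772063 (plus strand), Pdia6 at chr12:17266471-17266529 (plus), Herpud1 at chr8:94386357-94386407 (plus), Trib3 at chr2:152344019-152344066 (minus), Chac1 at chr2:119351029-119351076 (plus) and Asns at chr6:7693205-7693252 (minus).
Hspa5: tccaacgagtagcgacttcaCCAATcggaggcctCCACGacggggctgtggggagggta
Pdia6: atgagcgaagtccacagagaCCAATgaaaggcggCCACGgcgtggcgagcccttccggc
Herpud1: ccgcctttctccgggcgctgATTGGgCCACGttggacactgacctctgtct
Trib3: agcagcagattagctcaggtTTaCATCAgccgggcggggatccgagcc
Chac1: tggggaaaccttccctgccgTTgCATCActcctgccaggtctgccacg
Asns: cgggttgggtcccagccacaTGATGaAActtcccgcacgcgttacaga
The ER stress elements of Hspa5 and Pdia6 begin 65 and 98 bases upstream of the start site. The C/EBP-ATF elements of Trib3 and Chac1 read on the opposite strand, so the capitals show the reverse complement, and that of Asns begins 23 bases upstream. Those of Trib3 and Chac1 begin 14 bases downstream and 193 bases upstream, and the ER stress element II of Herpud1 begins 52 bases upstream. P4hb, Atf4, Ddit3 and Ppp1r15a held none of the 4 motifs in these windows.

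Several libraries stood apart, which bears on the ISC comparisons in particular. Gene counts per library ranged from 11524335 to 45516228. In the libraries labelled Sec-Cre ileal ISCs, replicate 1 had 57% unmapped reads and 33.9% of its gene counts in Paneth cell genes, and replicate 2 had 35.8% and 1.25%. The other 11 libraries had 2.58 to 13.9% unmapped reads. The summed stem cell markers were 1488 to 2476 CPM (counts scaled to library size) in those 2 libraries, against 5705 to 5917 CPM in WT ileal ISCs. Olfm4, the leading gene of that list, was at 302 and 1258 CPM, against 3005 and 3608 CPM. Olfm4 was at 70.0 to 102 CPM in duodenal ISCs, so a low level of this gene is not particular to those 2 libraries. The summed list was at 3474 to 4338 CPM in duodenal ISCs, and its level in those 2 libraries was the lowest of the 6 groups. Lgr5, Ascl2, Smoc2 and Rgmb overlapped with WT ileal ISCs. All other genes of the stem cell list lay below both WT ileal libraries, such as Slc12a2 at 478 and 448 CPM, against 1440 and 1214 CPM. Enterocyte markers were 32223 to 56221 CPM in those 2 libraries, against 2406 to 2556 CPM. Axin2, a Wnt feedback target, was at 79.0 and 37.9 CPM there, against 330 and 285 CPM in WT ileal ISCs, whereas it was at 822 and 789 CPM in Sec-Cre organoids, against 222 and 393 CPM in WT organoids. These 2 libraries therefore differ from their label in their enterocyte markers, summed stem cell markers and Axin2. Whether they hold the labelled cells cannot be settled here, and they are named by the label below. TMM set the effective size of their replicate 1 at 0.352 of its gene counts and that of replicate 2 at 0.875, so levels in replicate 1 are far higher with TMM than without it. Apc itself was at 185 to 204 CPM in Sec-Cre organoids and 189 to 243 CPM in ISC-Cre organoids, against 139 to 157 CPM in WT organoids, and a count over the whole gene does not check a deletion of part of it. Stem cell genes were present in every group, with Lgr5 between 51.9 and 281 CPM.

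Levels are CPM after TMM scaling over all 13 libraries, and tests are edgeR quasi-likelihood tests with Benjamini-Hochberg adjustment over all genes of a fit. A gene is said to have risen, fallen or changed where the adjusted p was under 0.05, and fold changes are log2 with their standard error (SE). Whether replicates were separate mice or cultures is not in the labels, and the p-values therefore rest on a spread between libraries that may be technical.

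**Figure D1:**
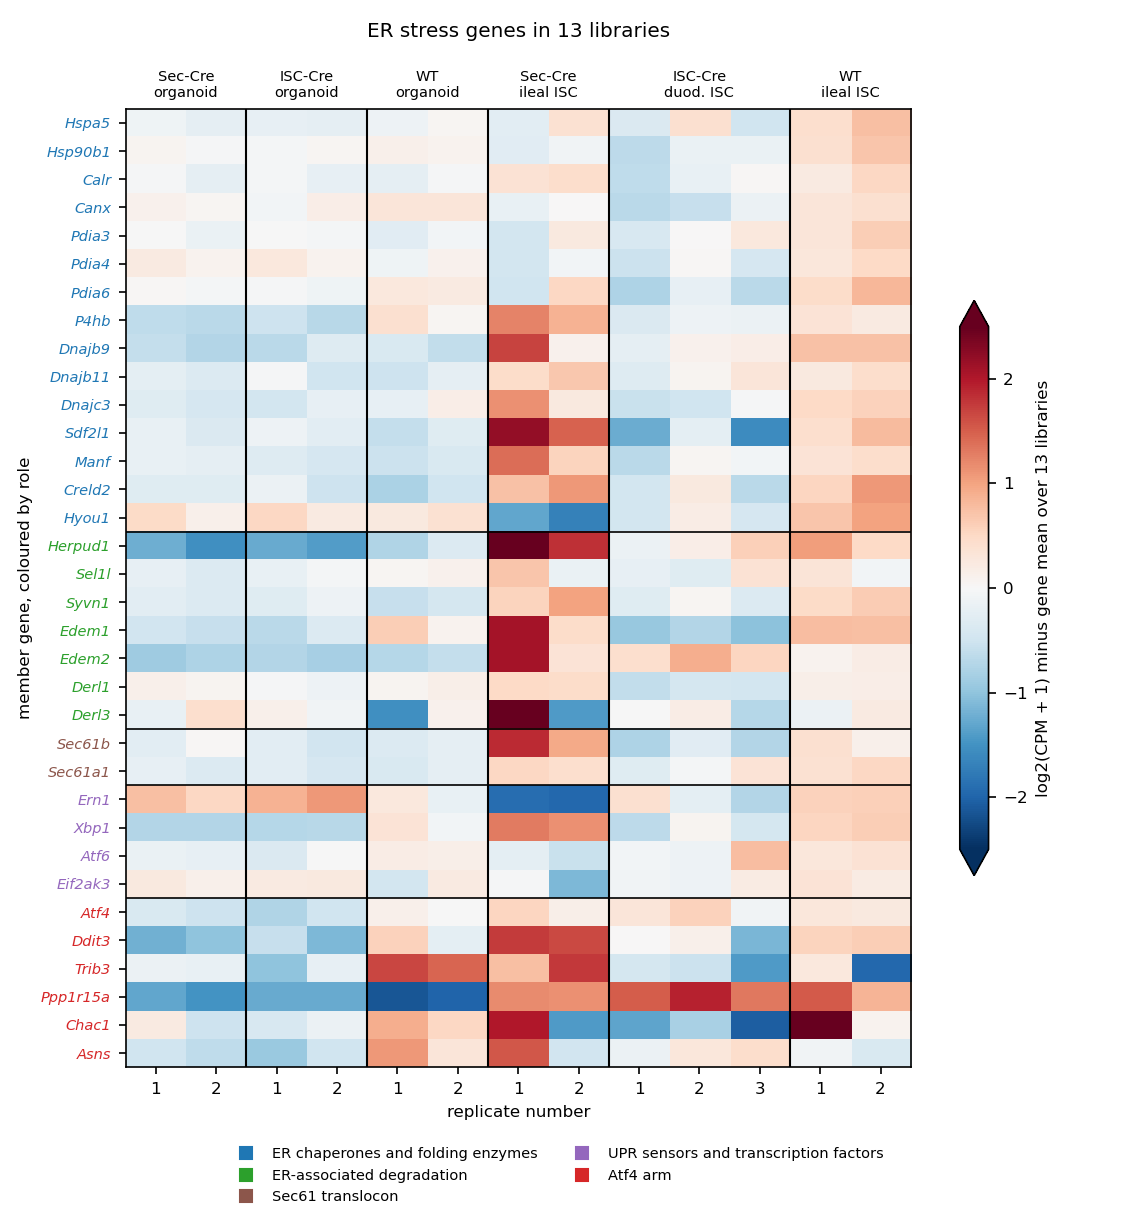
Each row is one of the 34 members, coloured by role, and each column a library; colour gives log2(CPM + 1) minus the gene's mean over 13 libraries. The chaperones in the upper block are pale across the organoid columns, while Herpud1, P4hb, Xbp1 and most of the Atf4 arm are lower in the 4 Apc-null organoid libraries than in the 2 WT organoid libraries.

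In organoids most chaperones did not pass the test, whereas P4hb, parts of ERAD, Xbp1 and most of the Atf4 arm were lower without Apc. Of the 34 members, 0 rose and 9 fell in Sec-Cre organoids relative to WT organoids (26.5% lower). In the same comparison 33% of all 14208 genes tested changed, 16.7% higher and 16.3% lower. With ISC-Cre organoids against the same WT libraries, 2 rose and 9 fell (26.5% lower), where 37.8% of all genes changed, 19.3% higher and 18.5% lower. The median log2 fold change of the members was -0.15 in Sec-Cre and -0.14 in ISC-Cre organoids, against 0.05 and 0.03 over all genes tested. Both comparisons use the same 2 WT libraries, so their likeness is partly built in. Beside the 0 members that rose in Sec-Cre organoids by edgeR, 2 had a positive change at an unadjusted p under 0.05, DESeq2 called 2 and limma voom 1. In a fit of all 13 libraries, whose common spread was larger, 2 members fell in each comparison, P4hb and Xbp1 in both. Without Sec-Cre replicate 2 the 9 that fell in Sec-Cre organoids became 4, and without WT replicate 2 the number that rose was 2 in Sec-Cre and 4 in ISC-Cre organoids.

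Per kilobase of exon, the 6 most abundant members were chaperones, while others stood lower, down to Dnajb9 in 26th place at 9.37 ± 1.1 CPM per kb in WT organoids (SD, n = 2). P4hb led there with 447 ± 79.4 CPM per kb (SD, n = 2), followed by Calr at 239 ± 24.3, Pdia3 at 208 ± 20.7, Hsp90b1 at 183 ± 3.51 and Hspa5 at 162 ± 13.3. The ranges of Calr and Pdia3 overlapped, and those of the other neighbours among these 5 did not. Atf4 was 7th at 104 ± 6.38 CPM per kb, while its targets Trib3, Chac1 and Ppp1r15a were 30th, 31st and 33rd. Derl3, an ERAD subunit, was last of the 34 at 0.524 CPM per kb, with 0 counts in WT replicate 1 and 47 counts in WT replicate 2.

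Among the chaperones, P4hb was the 1 member of 15 that fell in Sec-Cre organoids (6.67%). P4hb, the protein disulfide isomerase that is also a subunit of collagen prolyl hydroxylase, had 701 and 679 CPM in Sec-Cre organoids and 763 and 675 CPM in ISC-Cre organoids, against 1441 and 1119 CPM in WT organoids. All 4 Apc-null libraries lay below both WT libraries. Its log2 fold change was -0.94 ± 0.16 (SE, adjusted p = 0.00406) in Sec-Cre and -0.86 ± 0.16 (adjusted p = 0.00504) in ISC-Cre organoids. Pdia6, another disulfide isomerase, had 294 and 276 CPM in Sec-Cre organoids and 280 and 264 CPM in ISC-Cre organoids, against 344 and 334 CPM in WT organoids. It fell by 0.35 ± 0.12 on the log2 scale in ISC-Cre organoids (adjusted p = 0.0488), a call that was lost in each fit that left out any 1 library (adjusted p up to 0.189), and its value in Sec-Cre organoids was -0.30 ± 0.12 (adjusted p = 0.0851).

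The major folding chaperones did not pass the test. Hspa5 (BiP), the Hsp70 of the ER that also holds the sensors inactive, had 652 and 598 CPM in Sec-Cre organoids and 605 and 595 CPM in ISC-Cre organoids, against 644 and 724 CPM in WT organoids. The Sec-Cre and WT ranges overlapped, and the log2 fold changes were -0.18 ± 0.12 in Sec-Cre (adjusted p = 0.293) and -0.22 ± 0.12 in ISC-Cre organoids (adjusted p = 0.195). The 14 chaperones without a call in Sec-Cre organoids had log2 fold changes from -0.41 (Dnajc3, a co-chaperone and inhibitor of PERK) to 0.28 (Creld2), with SEs of 0.11 to 0.20. The 13 without a call in ISC-Cre organoids lay between -0.35 and 0.29. The lectin chaperones Calr and Canx, which hold glycoproteins during folding, had values of -0.05 ± 0.14 and -0.27 ± 0.12 in Sec-Cre organoids. Summed over the 15 genes, chaperone mRNA was 4800 and 5220 CPM in Sec-Cre organoids and 4944 and 5098 CPM in ISC-Cre organoids, against 5767 and 5798 CPM in WT organoids, and P4hb made up most of that gap.

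In the ERAD group 3 of 7 genes fell in Sec-Cre and 2 of 7 in ISC-Cre organoids, where 16.3% and 18.5% of all genes fell. Herpud1, which tethers the ubiquitin ligase complex of the ER membrane and is a sensitive target of the response, had 59.6 and 47.5 CPM in Sec-Cre organoids and 57.7 and 52.2 CPM in ISC-Cre organoids, against 82.8 and 110 CPM in WT organoids. It fell by 0.90 ± 0.19 in Sec-Cre (adjusted p = 0.00964) and by 0.85 ± 0.19 in ISC-Cre organoids (adjusted p = 0.0107). Edem1, a lectin that directs misfolded glycoproteins to degradation, had 75.4 and 70.5 CPM in Sec-Cre organoids and 65.7 and 82.9 CPM in ISC-Cre organoids, against 162 and 111 CPM in WT organoids. Its log2 fold changes were -0.96 ± 0.20 (adjusted p = 0.0101) and -0.92 ± 0.20 (adjusted p = 0.0103). Sel1l, the scaffold of the Hrd1 ligase, had 109 and 99.4 CPM in Sec-Cre organoids and 111 and 121 CPM in ISC-Cre organoids, against 130 and 135 CPM in WT organoids. Sel1l fell by 0.40 ± 0.12 in Sec-Cre organoids (adjusted p = 0.0376), which was lost without any 1 of the 6 libraries (adjusted p up to 0.291), and its value in ISC-Cre organoids was -0.23 ± 0.12 (adjusted p = 0.172). The ligase Syvn1 (Hrd1) itself had values of 0.14 ± 0.14 in Sec-Cre and 0.26 ± 0.14 in ISC-Cre organoids, and neither passed. Without Sec-Cre replicate 2, Herpud1 (adjusted p = 0.071) and Edem1 (0.0567) lost their calls in Sec-Cre organoids. Without ISC-Cre replicate 2 the Herpud1 call (0.0798) and without ISC-Cre replicate 1 the Edem1 call (0.0821) were lost in ISC-Cre organoids.

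The translocon subunits Sec61a1, which forms the protein channel, and Sec61b did not pass the test in either organoid comparison. Their log2 fold changes lay between -0.12 and 0.12, with SEs of 0.13 to 0.16. Sec61b shares 23.5% of its 31-base words with other genes, so its counts are uncertain.

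Among the sensors and transcription factors, Xbp1 fell and its activator Ern1 moved the other way. Xbp1 had 105 and 104 CPM in Sec-Cre organoids and 106 and 108 CPM in ISC-Cre organoids, against 223 and 167 CPM in WT organoids. The Apc-null libraries lay close to one another and below both WT libraries. Its log2 fold change was -0.95 ± 0.16 (adjusted p = 0.0038) in Sec-Cre and -0.90 ± 0.16 (adjusted p = 0.00409) in ISC-Cre organoids. Ern1 had 66.1 and 56.4 CPM in Sec-Cre organoids and 71.9 and 83 CPM in ISC-Cre organoids, against 47.1 and 34.3 CPM in WT organoids. Ern1 rose by 0.89 ± 0.19 in ISC-Cre organoids (adjusted p = 0.0094, lost without ISC-Cre replicate 2 at 0.0623), and its value in Sec-Cre organoids was 0.54 ± 0.19 (adjusted p = 0.0659). Atf6 had 72.6 and 70.9 CPM in Sec-Cre organoids and 62.9 and 80.4 CPM in ISC-Cre organoids, against 92.3 and 89.7 CPM in WT organoids. Its changes of -0.40 ± 0.14 (adjusted p = 0.0711) and -0.38 ± 0.14 (adjusted p = 0.0722) did not pass, although the groups did not overlap. Eif2ak3 had 61.3 and 56.5 CPM in Sec-Cre organoids and 60.9 and 61.2 CPM in ISC-Cre organoids, against 37.3 and 60.9 CPM in WT organoids. WT replicate 2 lay among the Apc-null libraries and WT replicate 1 below them, and the values of 0.21 ± 0.22 (adjusted p = 0.507) and 0.28 ± 0.22 (adjusted p = 0.361) did not pass. Eif2ak3 changed sign without WT replicate 1 (-0.09 and -0.02) and passed without WT replicate 2 (0.61, adjusted p = 0.0259, and 0.67, adjusted p = 0.0168).

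**Figure D2:**
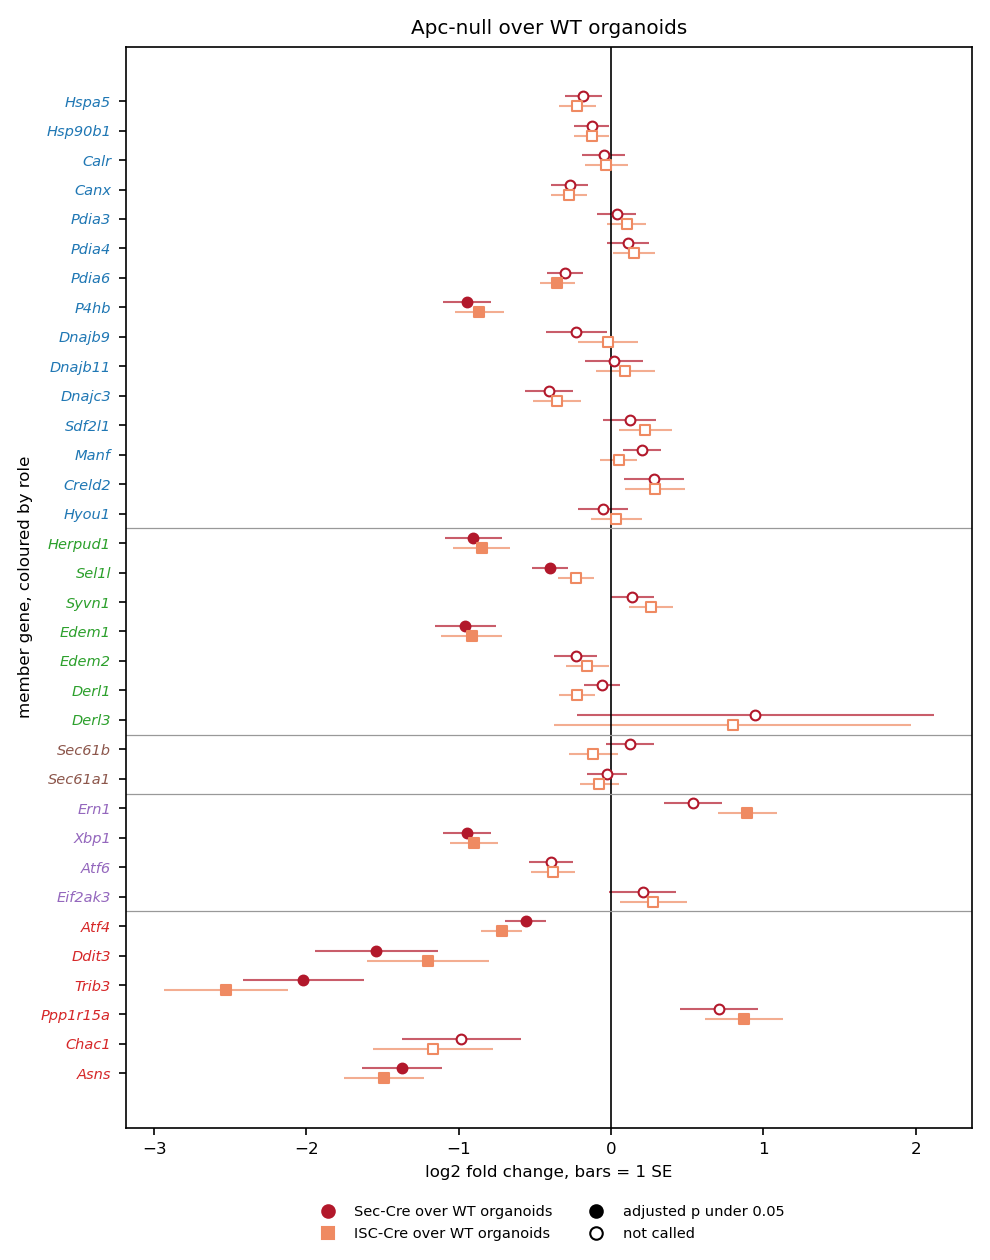
Log2 fold changes of the 34 members over WT organoids, with 1 SE, for Sec-Cre (circles) and ISC-Cre (squares) organoids; filled symbols passed an adjusted p of 0.05. Most chaperones sit near 0, while Trib3 is the farthest left at -2.02 and -2.53 and Ern1 and Ppp1r15a lie to the right.

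The Atf4 arm held the members with the largest falls. Of its 6 genes, 0 rose and 4 fell in Sec-Cre organoids, and 1 rose and 4 fell in ISC-Cre organoids. Over all genes 16.7% rose and 16.3% fell in Sec-Cre organoids, and 19.3% rose and 18.5% fell in ISC-Cre organoids, so the 1 of 6 that rose is no more than that share. The median over the 6 genes was -1.18 in Sec-Cre and -1.19 in ISC-Cre organoids, while that of the 15 chaperones was -0.05 and -0.02. Summed over the 6, the arm was at 254 and 282 CPM in Sec-Cre organoids and 219 and 266 CPM in ISC-Cre organoids, against 405 and 532 CPM in WT organoids.

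Atf4, the transcription factor itself, had 182 and 164 CPM in Sec-Cre organoids and 139 and 167 CPM in ISC-Cre organoids, against 256 and 235 CPM in WT organoids. It fell by 0.56 ± 0.13 in Sec-Cre (adjusted p = 0.0169) and by 0.72 ± 0.135 in ISC-Cre organoids (adjusted p = 0.00543), and the Sec-Cre call was lost without Sec-Cre replicate 1 (0.073), Sec-Cre replicate 2 (0.152) or WT replicate 1 (0.0575). Trib3, a pseudokinase that restrains Atf4 and Akt signalling, had 3.93 and 3.83 CPM in Sec-Cre organoids and 1.72 and 3.71 CPM in ISC-Cre organoids, against 16.4 and 14.0 CPM in WT organoids. Its log2 fold change was -2.02 ± 0.40 (adjusted p = 0.00743) in Sec-Cre and -2.53 ± 0.41 (adjusted p = 0.00275) in ISC-Cre organoids. These levels rest on 43 to 97 reads per Apc-null library and 233 and 315 reads in the WT libraries. Asns, asparagine synthetase, had 74.5 and 68.1 CPM in Sec-Cre organoids and 55.6 and 74.7 CPM in ISC-Cre organoids, against 225 and 131 CPM in WT organoids. It fell by 1.37 ± 0.26 in Sec-Cre (adjusted p = 0.00653) and by 1.49 ± 0.26 in ISC-Cre organoids (adjusted p = 0.00401). The Trib3 and Asns calls were kept in every fit that left out 1 organoid library. Neither gene was called in the fit of all 13 libraries, where P4hb and Xbp1 were the members that fell.

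Ddit3 (CHOP), a transcription factor that promotes cell death under lasting stress, had 4.39 and 5.21 CPM in Sec-Cre organoids and 7.28 and 4.66 CPM in ISC-Cre organoids, against 17.6 and 9.42 CPM in WT organoids. Its changes were -1.54 ± 0.41 in Sec-Cre (adjusted p = 0.0241) and -1.20 ± 0.40 in ISC-Cre organoids (adjusted p = 0.0498). The Sec-Cre call of Ddit3 was lost without either Sec-Cre replicate (adjusted p of 0.12 and 0.0781) or WT replicate 1 (-1.01, adjusted p = 0.0917), and the ISC-Cre call was lost without any library but WT replicate 2 (adjusted p up to 0.232, and -0.68 without WT replicate 1). Part of its exons (4.73%) overlaps Mars and Gm4189, both on the opposite strand, and the counts were not split by strand. Chac1, a glutathione-degrading enzyme, had 6.88 and 3.67 CPM in Sec-Cre organoids and 4.12 and 5.04 CPM in ISC-Cre organoids, against 11.5 and 8.62 CPM in WT organoids. It did not pass, at -0.98 ± 0.39 (adjusted p = 0.0931) and -1.17 ± 0.39 (adjusted p = 0.051), although all 4 Apc-null libraries lay below both WT libraries. Ppp1r15a (GADD34), the phosphatase subunit that reverses the phosphorylation of eIF2α, went against the rest of the arm. It had 10.8 and 9.35 CPM in Sec-Cre organoids and 11.2 and 11.1 CPM in ISC-Cre organoids, against 5.63 and 6.22 CPM in WT organoids. Ppp1r15a rose by 0.87 ± 0.26 in ISC-Cre organoids (adjusted p = 0.0321, lost without any library but WT replicate 2, up to 0.121), and its value in Sec-Cre organoids was 0.71 ± 0.26 (adjusted p = 0.0699).

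**Figure D3:**
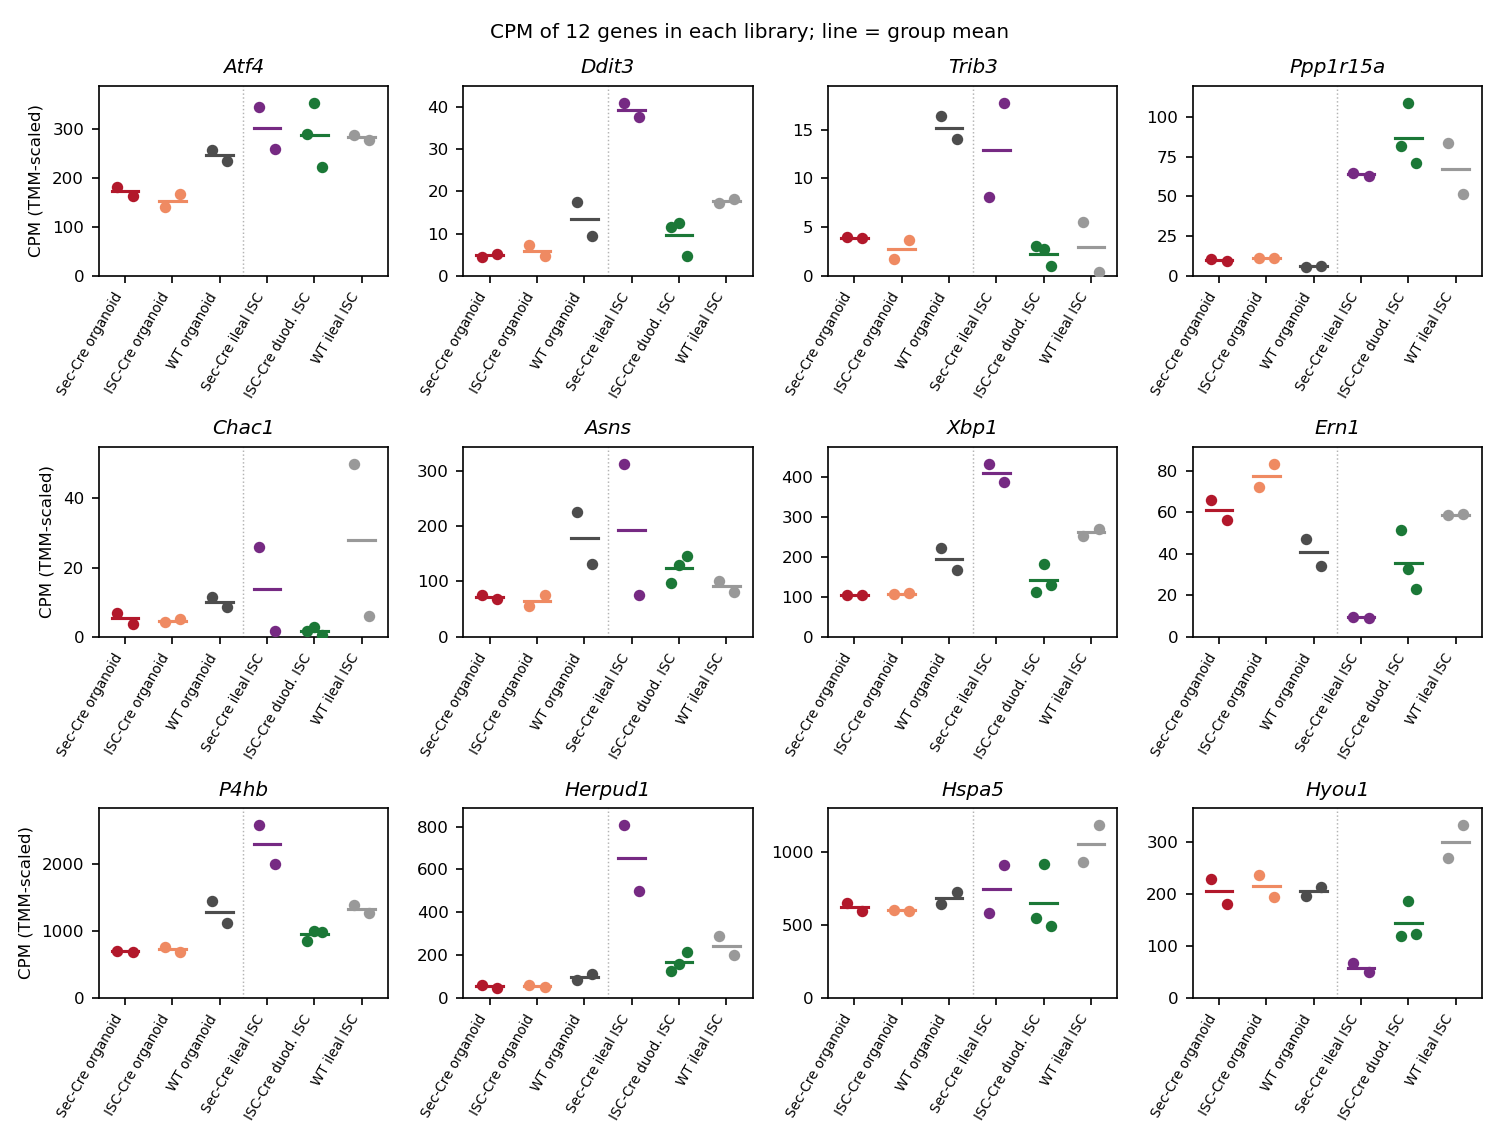
CPM of 12 members in each of the 13 libraries, by group, with the group mean as a line; every axis starts at 0 and the dotted line parts organoids from sorted cells. In organoids Trib3 and Asns are highest in the 2 WT libraries and Ppp1r15a is lowest there, while in sorted cells Ern1 and Hyou1 are lowest in the libraries labelled Sec-Cre ileal ISCs.

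Other genes of the pathway were read in Sec-Cre and ISC-Cre against WT organoids, from lists drawn up by function while earlier results of these data were known. The counts below stand against 16.7% of all genes higher and 16.3% lower in Sec-Cre organoids, and 19.3% higher and 18.5% lower in ISC-Cre organoids. Of 27 Atf4 targets for amino acid supply, 2 rose and 11 fell in Sec-Cre organoids, with a median of -0.36, and 1 rose and 12 fell in ISC-Cre organoids. Cth, which makes cysteine, had 28.2 and 28.1 CPM in Sec-Cre organoids, against 129 and 120 CPM in WT organoids (log2 fold change -2.20 ± 0.14, adjusted p = 7.67e-05). Aldh18a1, which starts proline synthesis, had 133 and 128 CPM in Sec-Cre organoids, against 420 and 378 CPM in WT organoids (-1.66 ± 0.14, adjusted p = 0.000223). The amino acid enzymes that fell thus extended beyond Asns.

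Of 14 Atf4 targets in stress signalling that were tested (15 listed), 2 rose and 8 fell in Sec-Cre organoids, with a median of -0.72, and 1 rose and 8 fell in ISC-Cre organoids. Cebpb, a bZIP partner of Atf4, had 15.7 and 11.6 CPM in Sec-Cre organoids, against 45.8 and 55.2 CPM in WT organoids (-1.94 ± 0.21, adjusted p = 0.00065). Stc2, a secreted glycoprotein, had 13.7 and 11.7 CPM in Sec-Cre organoids, against 92.3 and 53.1 CPM in WT organoids (-2.57 ± 0.37, adjusted p = 0.00204).

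Of 19 other folding and redox enzymes tested (20 listed), 0 rose and 7 fell in Sec-Cre organoids, with a median of -0.33, and 1 rose and 6 fell in ISC-Cre organoids. Agr2, a disulfide isomerase of mucin-secreting cells that also stands in the goblet list, had 32.5 and 38.5 CPM in Sec-Cre organoids, against 270 and 260 CPM in WT organoids (-2.95 ± 0.18, adjusted p = 6.01e-05). Ero1l, the oxidase that recharges disulfide isomerases, had 83.7 and 93.1 CPM in Sec-Cre organoids, against 1253 and 324 CPM in WT organoids (-3.21 ± 0.64, adjusted p = 0.00789). The WT replicates of Ero1l lay far apart, yet both exceeded every Apc-null library.

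Of 25 genes for ER import, signal peptide cleavage and N-glycosylation, 1 rose and 6 fell in Sec-Cre organoids, with a median of -0.11, and 1 rose and 7 fell in ISC-Cre organoids. Rpn2 and Stt3b, subunits of the oligosaccharyltransferase, fell in Sec-Cre organoids by 0.56 ± 0.12 (adjusted p = 0.0122) and 0.54 ± 0.12 (adjusted p = 0.0125). Of 16 other ERAD genes, 2 rose and 2 fell in Sec-Cre organoids, with a median of 0.03. In ISC-Cre organoids 1 rose and 0 fell, and none of these counts exceeded the all-gene share. Ufd1l, a cofactor of the extraction ATPase Vcp, rose in Sec-Cre organoids by 0.62 ± 0.14 (adjusted p = 0.0134), and Edem3, a relative of Edem1, fell by 0.45 ± 0.12 (adjusted p = 0.0271). Of 14 other transducers, 0 rose and 3 fell in Sec-Cre organoids, with a median of -0.04, and 1 rose and 2 fell in ISC-Cre organoids. Creb3l3, a membrane-bound factor of enterocytes and liver, had 0.169 and 0.118 CPM in Sec-Cre organoids, against 22.2 and 23.7 CPM in WT organoids (-7.32 ± 0.398, adjusted p = 4.45e-05). Its Sec-Cre levels rest on very few reads, so the size of this fall is uncertain. Creb3l1, which is in the goblet list as well, had 5.15 and 6.35 CPM in Sec-Cre organoids, against 57.8 and 52.8 CPM in WT organoids (-3.32 ± 0.22, adjusted p = 8.17e-05). In the folding and transducer lists most genes had no call and a few had large falls.

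Markers of differentiated cells moved in the same organoid comparisons. Of 20 Paneth genes tested, 1 rose and 14 fell in Sec-Cre organoids, and their summed level was 2608 and 2795 CPM in Sec-Cre organoids and 5222 and 7709 CPM in ISC-Cre organoids, against 8682 and 10455 CPM in WT organoids, led by Lyz1 among 24 listed. Lyz1 itself was at 3335 and 2440 CPM in ISC-Cre organoids, against 2136 and 2290 CPM in WT organoids. Ang4 and Mmp7 also lay above both WT libraries there, so the lower ISC-Cre sum was not shared by every Paneth gene. Of 17 goblet genes tested, 0 rose and 13 fell in Sec-Cre organoids, and the 18 listed summed to 597 and 662 CPM in Sec-Cre organoids and 668 and 911 CPM in ISC-Cre organoids, against 4903 and 5274 CPM in WT organoids. All 20 enterocyte genes fell in Sec-Cre organoids, to a sum of 538 and 638 CPM in Sec-Cre organoids and 457 and 462 CPM in ISC-Cre organoids, against 3859 and 5120 CPM in WT organoids. Enteroendocrine genes fell in 16 of 20 cases and tuft genes in 8 of 11 tested, with none that rose. The stromal list, led by Vim, summed to 612 and 285 CPM in Sec-Cre organoids, against 14 and 16 CPM in WT organoids, of which Vim made up 591 and 274 CPM in Sec-Cre organoids, against 9.99 and 11.9 CPM in WT organoids. Of its 8 genes tested, 4 rose and 1 fell. In bulk RNA fewer cells of a type and less RNA per cell cannot be told apart, and the part of these cell types in the falls of P4hb, Xbp1, Herpud1 and the Atf4 arm was not tested.

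**Figure D4:**
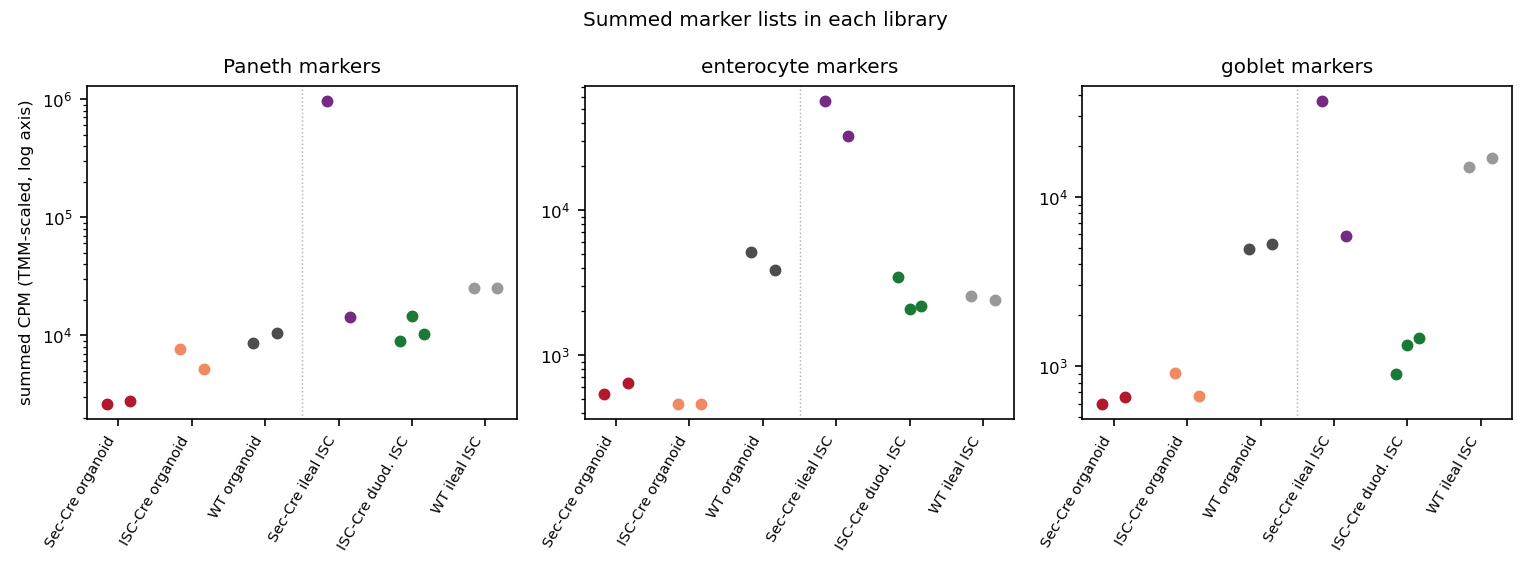
Summed CPM of the Paneth, enterocyte and goblet marker lists in each library, on a log axis, by group. The 4 Apc-null organoid libraries lie below both WT organoid libraries in all 3 panels, and replicate 1 of the libraries labelled Sec-Cre ileal ISCs lies above every other library.

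Sec-Cre and ISC-Cre organoids were not distinguishable in these genes. By edgeR 0 of 34 members rose and 0 fell in Sec-Cre relative to ISC-Cre organoids, where 0.0422% of all genes changed. At an unadjusted p under 0.05 there were also 0, and DESeq2 and limma voom called 0 as well. The log2 fold changes ran from -0.36 ± 0.19 for Ern1 to 0.51 ± 0.40 for Trib3, and the 15 chaperones lay between -0.21 and 0.15. With 2 libraries a group and SEs of 0.11 to 1.14, differences of the size of these values could not be shown.

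In sorted ileal cells the pattern was another one. Comparing the libraries labelled Sec-Cre ileal ISCs with WT ileal ISCs, 1 member rose and 2 fell (2.94% and 5.88% of 34), where 16.6% of all genes changed, 9.62% higher and 6.96% lower. The members' median was 0.21 against 0 over all genes. Hyou1, the large Hsp110-like chaperone that recharges BiP, had 66.0 and 50.1 CPM in the libraries labelled Sec-Cre ileal ISCs, against 268 and 331 CPM in WT ileal ISCs. It fell by 2.37 ± 0.35 (adjusted p = 0.00531). Ern1 had 9.60 and 9.19 CPM in the libraries labelled Sec-Cre ileal ISCs, against 58.4 and 58.9 CPM in WT ileal ISCs, and fell by 2.65 ± 0.43 (adjusted p = 0.00697). These levels rest on 39 and 366 reads for Ern1 and 268 and 1994 reads for Hyou1. Without TMM the libraries were farther apart, at 3.38 and 8.04 CPM for Ern1 and 23.3 and 43.8 CPM for Hyou1, and still below both WT libraries. Both calls held without the Paneth-rich replicate 1 (Hyou1 adjusted p = 0.011, Ern1 0.0198). They were lost without WT replicate 2 (0.0548 and 0.0551), and that of Ern1 also without WT replicate 1 (0.053). The number of members that rose was 7 without Sec-Cre replicate 2, 2 without duodenal replicate 3 and 0 without any other 1 library of the 7, and 4 fell without Sec-Cre replicate 1.

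Long transcripts were lower in these 2 libraries as a whole. The median log2 fold change was 0.60 in the shortest of 3 equal length classes of 13908 genes (up to 3135 bases) and -0.40 in the longest (5684 bases or more), and Hyou1 and Ern1 have exons of 7230 and 8173 bases in all. With a correction for exon length, chosen after seeing the data, Hyou1 stood at -1.90 (adjusted p = 0.0147) and Ern1 at -2.14 (adjusted p = 0.0179).

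Herpud1 had 806 and 499 CPM in the libraries labelled Sec-Cre ileal ISCs, against 290 and 198 CPM in WT ileal ISCs. It rose by 1.42 ± 0.39 (adjusted p = 0.0408), and the call was lost with the length correction (0.119), without the Paneth-rich replicate 1 (0.102), without either WT replicate (0.135 and 0.263) and without duodenal replicate 1 or 2 (0.0629 and 0.0736). All 7 ERAD genes had positive values, with a median of 0.74, but the other 6 did not pass. Edem1 had 450 and 145 CPM there, against 180 and 177 CPM in WT ileal ISCs, and Edem2, its relative, 371 and 110 CPM against 93.4 and 100 CPM. With TMM replicate 1 of both genes was far above the WT libraries. Without TMM replicate 1 had 159 CPM of Edem1, against 187 and 187 CPM in WT ileal ISCs, and 284 CPM of Herpud1, against 300.3 and 210.0 CPM. The Edem1 and Herpud1 excesses in replicate 1 therefore depend on the scaling. Edem2 in replicate 1 was at 131 CPM without TMM, still above both WT libraries at 96.8 and 106 CPM. Herpud1 in replicate 2 was at 436 CPM without TMM, also above both WT libraries. The chaperones ran from Hyou1 at -2.37 to Sdf2l1 at 1.27 ± 0.48 (adjusted p = 0.104), a partner of ER DnaJ proteins, with a median of 0.02. Of the 6 Atf4-arm genes none passed in either direction. Ddit3 had 40.9 and 37.7 CPM, against 17.3 and 18.1 CPM in WT ileal ISCs, and its value of 1.15 ± 0.49 did not pass (adjusted p = 0.139). Without TMM replicate 1 of Ddit3 was at 14.4 CPM, below both WT libraries.

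The Sec-Cre difference from WT was set against itself in the 2 settings, as organoid minus ileal ISC, in a fit of all 13 libraries. Its ileal side rests on the 2 libraries whose enterocyte markers, summed stem cell markers and Axin2 go against their label. The difference therefore cannot be read as an effect of Apc loss alone. Of 34 members, 2 differed upward and 7 downward (9 in all, near the all-gene share), where 26.4% of all 15208 genes differed, 13.4% higher and 13% lower, with an all-gene median of 0.16. Hyou1 (2.37 ± 0.39, adjusted p = 0.00105) and Ern1 (3.24 ± 0.48, adjusted p = 0.000527) had the more positive effect in organoids. P4hb (-1.68 ± 0.38, adjusted p = 0.00743), Herpud1 (-2.27 ± 0.46, adjusted p = 0.00372), Edem1 (-1.64 ± 0.56, adjusted p = 0.0496) and Xbp1 (-1.54 ± 0.36, adjusted p = 0.00843) had the more negative effect there. The Atf4 arm contributed Ddit3 (-2.63 ± 0.67, adjusted p = 0.0128), Trib3 (-4.13 ± 1.26, adjusted p = 0.0307) and Asns (-2.40 ± 0.71, adjusted p = 0.0256). Trib3 rests on 33 and 705 reads in the libraries labelled Sec-Cre ileal ISCs and on 89 and 8 reads in WT ileal ISCs. Asns had 312 and 75.6 CPM in the libraries labelled Sec-Cre ileal ISCs, against 100 and 81.1 CPM in WT ileal ISCs, so its difference drew on replicate 1, which was at 110 CPM without TMM.

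Without that Paneth-rich replicate, Edem1 went to -0.63 (adjusted p = 0.18) and Asns to -1.08 (adjusted p = 0.0815), and the other 7 kept their calls. Edem1 also lost its call without any other library except duodenal replicate 3 and ileal Sec-Cre replicate 2 (adjusted p up to 0.17). Ddit3 lost its call without Sec-Cre organoid replicate 1 or WT organoid replicate 1 (0.058 and 0.0618), Trib3 without any 1 organoid library of Sec-Cre or WT or without ileal Sec-Cre replicate 2 (up to 0.0981; its value was -6.96 without WT ileal replicate 1), and Asns without either Sec-Cre organoid replicate, WT organoid replicate 1 or either WT ileal replicate (up to 0.104). The count of members that differed downward was 3 without Sec-Cre organoid replicate 1 or WT organoid replicate 1, 4 without Sec-Cre organoid replicate 2 and 11 without ileal Sec-Cre replicate 2. The enterocyte list moved with this result: its level was above WT in the libraries labelled Sec-Cre ileal ISCs and below WT in Sec-Cre organoids, and its part in the difference was not tested.

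**Figure D5:**
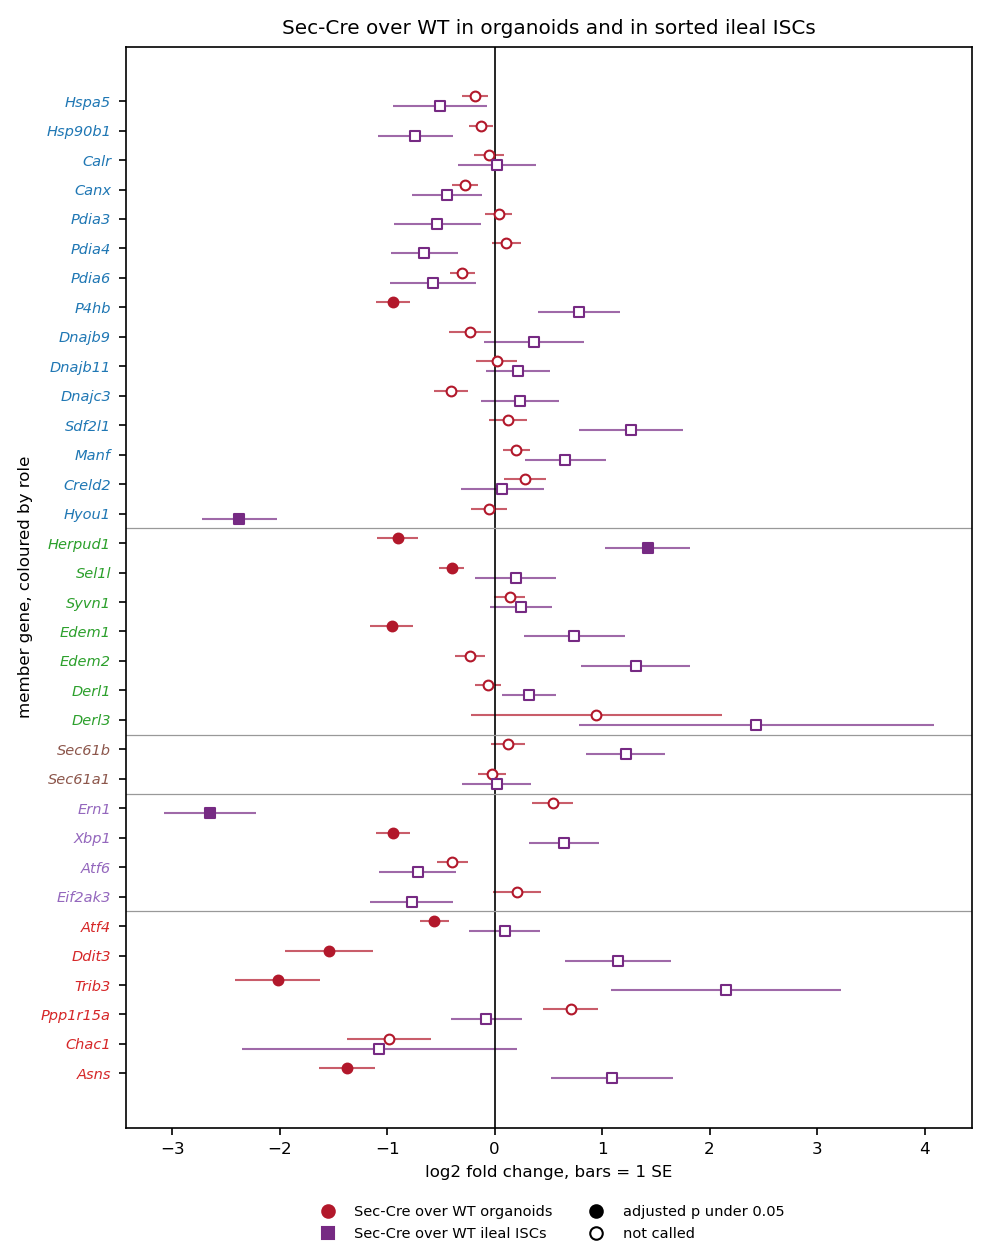
Log2 fold changes of the 34 members, with 1 SE, for Sec-Cre over WT organoids (circles) and for the libraries labelled Sec-Cre over WT ileal ISCs (squares); filled symbols passed an adjusted p of 0.05. For P4hb, Herpud1, Xbp1, Ddit3, Trib3 and Asns the circle lies left of 0 and the square right of it, and for Hyou1 and Ern1 the square lies beyond -2.

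ISC-Cre duodenal ISCs were compared with WT ileal ISCs across Apc loss together with a change of gut region, driver, Lgr5 allele, day of isolation and dissociation enzyme. Library strandedness differed too (98.5 to 98.9% of duodenal reads on 1 strand, 48.4 to 51.1% in the other libraries). These factors cannot be told apart. Of 34 members 0 rose and 4 fell (11.8%), where 19.1% of all genes changed, 10.2% higher and 8.84% lower. At an unadjusted p under 0.05 there were 0 with a positive and 14 with a negative change, and DESeq2 and limma voom called 0 higher. Edem1 had 54.0, 62.5 and 50.8 CPM in duodenal ISCs, against 180 and 177 CPM in WT ileal ISCs (-1.68 ± 0.42, adjusted p = 0.0269). Sdf2l1 had 18.5, 38.0 and 14.6 CPM in duodenal ISCs, against 61.2 and 79.5 CPM in WT ileal ISCs (-1.56 ± 0.43, adjusted p = 0.037). Hyou1 had 119, 186 and 123 CPM in duodenal ISCs, against 268 and 331 CPM in WT ileal ISCs (-1.07 ± 0.30, adjusted p = 0.0398). The groups did not overlap for these 3 genes.

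Chac1 had 1.71, 2.84 and 0.615 CPM in duodenal ISCs, against 49.9 and 6.13 CPM in WT ileal ISCs (-3.99 ± 1.20, adjusted p = 0.0489). Its WT libraries differed widely, and without WT replicate 1 its value was -1.80 (adjusted p = 0.407). Edem1 lost its call without any 1 WT or duodenal library (adjusted p up to 0.131), Sdf2l1 and Hyou1 without either WT library or without duodenal replicate 1 or 3 (up to 0.225 for Sdf2l1 and 0.292 for Hyou1), and Chac1 also without any duodenal library (up to 0.146). All 15 chaperones had negative values, from -1.56 to -0.32, with a median of -0.72 against 0.07 over all genes. Marker lists moved in the same comparison: goblet genes summed to 895 to 1473 CPM in duodenal ISCs, against 14989 to 16989 CPM in WT ileal ISCs, and Paneth genes to 8874 to 14492 CPM, against 25044 to 25124 CPM. Enteroendocrine genes summed to 37.5 to 48.8 CPM in duodenal ISCs, against 717 to 982 CPM, and stromal genes to 474 to 685 CPM, against 14.9 to 21 CPM, and their part in the members' values was not tested. Of all 14577 genes, 1289 fell in the main fit, 815 under the replicate block and 3388 under limma voom. The number of members that fell depended on the fit, with 0 of 34 under the replicate block and 24 under limma voom with library weights. It was 0 or 1 without either WT library or without duodenal replicate 1 or 3, and 13 and 14 without replicate 1 and replicate 2 of the libraries labelled Sec-Cre ileal ISCs.

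Against the libraries labelled Sec-Cre ileal ISCs, duodenal ISCs had 2 members higher and 12 lower (35.3% lower), where 40.8% of all genes changed, 21% higher and 19.8% lower. These groups differed in gut region, driver, Lgr5 allele, day of isolation, dissociation enzyme and strandedness, which cannot be told apart. Enterocyte genes summed to 2063 to 3435 CPM in duodenal ISCs, against 32223 to 56221 CPM, and their part was not tested. The all-gene median was -0.58 in the shortest length class and 0.65 in the longest. Sdf2l1 and Sec61b have exons of 1108 and 1271 bases in all. Sdf2l1 had 18.5, 38.0 and 14.6 CPM in duodenal ISCs, against 212 and 127 CPM in the libraries labelled Sec-Cre ileal ISCs (-2.83 ± 0.44, adjusted p = 0.00172). Sec61b had 48.7, 68.3 and 49.5 CPM in duodenal ISCs, against 306 and 163 CPM in the libraries labelled Sec-Cre ileal ISCs (-2.07 ± 0.33, adjusted p = 0.0019). Herpud1 had 126, 157 and 213 CPM in duodenal ISCs, against 806 and 499 CPM (-1.98 ± 0.35, adjusted p = 0.0031), and Edem1 differed by -2.42 ± 0.43 (adjusted p = 0.00309). All of these duodenal values lay below both Sec-Cre libraries. Edem1 was at -1.35 (adjusted p = 0.00517) without the Paneth-rich Sec-Cre replicate 1, and with the length correction Sdf2l1 was at -1.69 and Sec61b at -1.01.

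Xbp1 had 111, 182 and 129 CPM in duodenal ISCs, against 431 and 387 CPM in the libraries labelled Sec-Cre ileal ISCs (-1.54 ± 0.29, adjusted p = 0.00418). Ddit3 had 11.5, 12.6 and 4.59 CPM in duodenal ISCs, against 40.9 and 37.7 CPM (-2.03 ± 0.44, adjusted p = 0.00748). Derl1, a channel component of ERAD, had 76.2, 85.1 and 84.0 CPM in duodenal ISCs, against 166 and 160 CPM (-0.99 ± 0.22, adjusted p = 0.00879). Ern1 had 51.4, 32.5 and 23.0 CPM in duodenal ISCs, against 9.60 and 9.19 CPM (1.93 ± 0.40, adjusted p = 0.00603), and Hyou1 rose by 1.31 ± 0.32 (adjusted p = 0.0124). The Hyou1 call was lost with the length correction (0.757, adjusted p = 0.103) and without Sec-Cre replicate 2 (1.11, adjusted p = 0.0523). Syvn1 (-0.99 ± 0.26, adjusted p = 0.0161) completed the 10 with the smallest adjusted p, and its call was lost without Sec-Cre replicate 2 (0.062) or duodenal replicate 1 (0.067). The other 4 that fell were P4hb, Dnajc3, Manf and Creld2, with log2 fold changes of -1.28, -1.11, -1.24 and -1.17, and each lost its call without at least 2 of the single libraries. With the length correction Ddit3 was at -1.32 and kept its call, and Creld2 was at -0.27 (adjusted p = 0.539). Without duodenal replicate 1 the number that fell was 7, and without Sec-Cre replicate 1 the number that rose was 4. Without TMM Sec-Cre replicate 1 had 152 CPM of Xbp1, against 138, 218 and 127 CPM in duodenal ISCs. Its Ddit3 was at 14.4 CPM, against 14.4, 15.1 and 4.49 CPM. Derl1 (58.5 CPM) and Syvn1 (33.4 CPM) in that replicate lay below every duodenal library. These gaps in replicate 1 therefore depend on the scaling. Sec-Cre replicate 2 stayed above the duodenal libraries for these genes. Sdf2l1, Sec61b, Herpud1, Edem1, Ern1 and Hyou1 kept their direction in both replicates.

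Few genes passed between WT organoids and WT ileal ISCs, and the share that fell was larger among the members than over all genes. Of 34, 0 rose and 4 fell in WT organoids (11.8%), where 3.87% of all genes changed, 1.98% higher and 1.89% lower. By edgeR 1 member had a positive change at an unadjusted p under 0.05, DESeq2 called 0 higher and limma voom 1. Ppp1r15a had 5.63 and 6.22 CPM in WT organoids, against 83.2 and 51.5 CPM in WT ileal ISCs, and fell by 3.50 ± 0.31 (adjusted p = 0.00015), a call that was kept in every fit that left out 1 library. The 4 Apc-null organoid libraries had 9.35 to 11.2 CPM of Ppp1r15a and the 7 sorted libraries 51.5 to 109 CPM, so its level divided whole organoids from dissociated, sorted cells in all 13 libraries. Per the labels, the ISCs were isolated by flow cytometry and whole organoids were collected, and this step cannot be told apart from the tissue source.

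Creld2, a secreted ER stress product, had 25.1 and 30.9 CPM in WT organoids, against 64.4 and 94.3 CPM in WT ileal ISCs (-1.50 ± 0.33, adjusted p = 0.0256). Syvn1 had 43.0 and 47.5 CPM in WT organoids, against 89.8 and 99.8 CPM (-1.07 ± 0.23, adjusted p = 0.0231), and Herpud1 82.8 and 110 CPM against 290 and 198 CPM (-1.33 ± 0.33, adjusted p = 0.0425). The Herpud1 and Syvn1 calls were lost without any 1 of the 4 WT libraries (adjusted p up to 0.331 and 0.212), and that of Creld2 without any but WT ileal replicate 1 (up to 0.241). The number that fell was 1 or 2 without any 1 WT library and 7 without either library labelled Sec-Cre ileal ISCs. Trib3 (2.37 ± 0.91, adjusted p = 0.202) and Asns (0.97 ± 0.50, adjusted p = 0.367) had positive values, and neither passed. In all, 32 of the 34 members had negative values, with a median of -0.53 against 0 over all genes, and 30 of the 34 did not pass. Goblet genes summed to 4903 to 5274 CPM in WT organoids, against 14989 to 16989 CPM in WT ileal ISCs, and Paneth genes to 8682 to 10455 CPM, against 25044 to 25124 CPM, and their part in these values was not tested.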

How the data were processed

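PolyA RNA-seq counts per gene were analysed for 13 libraries in 6 groups. Per the submitters' processing notes the authors used STAR, DESeq2 1.22.2 and the mm10 build; the annotation is not given in the sources used here. The deposited values are raw counts per gene and library, and the unstranded count column was used throughout. The members and lists were chosen with earlier results of these data known. The main test was edgeR 4.0.16 (R 4.3.3) quasi-likelihood with TMM scaling and filterByExpr (minimum count 10), Benjamini-Hochberg adjusted over all genes of a fit. One fit held the 6 organoid libraries (14208 genes), 1 the 7 ISC libraries (14577 genes), and 1 all 13 (15208 genes) for organoid against ISC contrasts. SEs are the log2 fold change divided by the root of the F statistic. Scripts were tested on simulated data. Alternatives were DESeq2 1.42.0, limma 3.58.1 voom, other scaling, filter and sample choices, a replicate block, single libraries left out and, chosen after seeing the data, an exon length correction and a crossed block. Lengths came from GENCODE vM21, which matched 22753 of 24054 genes. Genes given in full were, per comparison, the up to 10 members called with the smallest adjusted p, the Atf4 arm and the sensors in organoids, and 2 genes per pathway list.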

Additional observations from a re-analysis of the deposited data

Results flagged for a closer look

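For 9 of 34 members the Sec-Cre difference from WT was not the same in organoids and in the libraries labelled ileal ISCs, by the test of the difference itself (edgeR quasi-likelihood, adjusted over all genes). In that test 26.4% of all genes differed, so the count says nothing particular to the members. The log2 difference, organoid minus ileal ISC, was 2.374 for Hyou1 and 3.237 for Ern1. It was -1.678 for P4hb, -2.271 for Herpud1, -1.638 for Edem1 and -1.544 for Xbp1. In the Atf4 arm it was -2.635 for Ddit3, -4.127 for Trib3 and -2.404 for Asns. The 2 libraries labelled Sec-Cre ileal ISCs had enterocyte markers at 32223 to 56221 CPM, against 2406 to 2556 CPM in WT ileal ISCs, while Sec-Cre organoids had 538 to 638 CPM, against 3859 to 5120 CPM in WT organoids, and the part of this in the differences was not tested. The same 2 libraries had fewer reads of long transcripts, and the all-gene median difference was -0.47 in the shortest and 0.60 in the longest length class.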

How the results depend on the processing

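With 2 or 3 libraries per group, few counts of called members were stable. Counts over all genes moved with the setting too. In the fit of all 13 libraries 1141 of 15208 genes fell in Sec-Cre and 1364 in ISC-Cre organoids. The main fit had 2318 and 2628 of 14208. For duodenal against WT ileal ISCs 2041 of 15208 genes fell in the fit of all 13, against 1289 of 14577 in the main fit. Counts at an unadjusted p were made for the members only. In Sec-Cre against WT organoids the number that rose was 1 without the filter, 2 by DESeq2 and 1 by voom, and the number that fell was 2 in the fit of all 13 libraries; leaving out single libraries gave 0 to 2 and 4 to 8. In ISC-Cre against WT organoids the number that rose was 1 by voom, under the replicate block, in the fit of all 13 and in the fit of the 2 groups alone, and the number that fell was 2 in the fit of all 13 (single libraries left out: 0 to 4 and 6 to 9). The crossed block, chosen after seeing the data, called 2 higher and 8 lower there. Eif2ak3 reversed without WT organoid replicate 1, to -0.0906 in Sec-Cre and -0.0236 in ISC-Cre organoids, and passed without WT organoid replicate 2 at 0.606 and 0.672. For the libraries labelled Sec-Cre ileal ISCs against WT the number that rose was 2 without the filter, 4 by DESeq2, 3 by voom, 0 with the length correction, 5 in the fit of all 13 and 0 in the fit of 2 groups (single libraries: 0 to 7 rose, 0 to 4 fell). For duodenal against WT ileal ISCs the number that fell was 2 with DESeq2 size factors, 9 by DESeq2, 24 by voom, 0 under the replicate block, 14 in the fit of all 13 and 13 in the fit of 2 groups (single libraries: 0 rose, 0 to 14 fell). For duodenal against Sec-Cre ISCs 1 rose with the length correction (single libraries: 1 to 4 rose, 7 to 15 fell). The organoid minus ISC difference kept 2 higher and 6 lower under the replicate block, with 2 to 3 and 3 to 11 as single libraries were left out. In WT organoids against WT ISCs voom called 1 higher and 7 lower (single libraries: 0 to 1 and 1 to 7). Sec-Cre against ISC-Cre organoids stayed at 0 in every setting. Same-numbered libraries did not deviate together over all genes (correlations of -0.107 to 0.034 among organoids and -0.094 to 0.078 among ISCs). This does not settle whether they were paired, since a pairing that touched only some genes would not show there. The replicate block left 8 lower in Sec-Cre organoids, 7 lower in ISC-Cre organoids, and 2 higher and 10 lower in duodenal against Sec-Cre ISCs. The causes of these shifts were not tested.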
